A study of Mus musculus with 6 samples.

Results

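Genomic imprinting was examined in the embryonic mouse brain through 40 genes that are transcribed wholly or mainly from 1 parental allele. They were chosen by name from the known imprinted clusters, and every RefSeq transcript ID that a RefSeq gene table assigns to them was kept. Of the 40 genes, 34 had an ID in the count tables. These had 42 IDs of the 23485 measured. The other 6 genes (H19, Igf2, Slc22a18, Dlk1, Usp29 and Snrpn) were not analysed here. By their textbook parental class, 17 of the 40 genes are maternally expressed and 20 are paternally expressed. The other 3 (Grb10, Ddc and Gnas) were classed as mixed, since their allele differs by tissue or transcript. The class of other genes can also depend on the cell type, as for Ube3a, which is maternally expressed in neurons. Whether each class holds in the tissue sampled was not tested. The genes lie in 10 clusters with 2 or more listed genes and at 5 single loci.

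The samples were whole brains of wild-type C57BL/6 embryos at E15.5 (embryonic day), and the sex of each embryo was read from its gonads, which hold testicular cords in males. The groups, female and male, had 3 samples each. Every sample was a pool of RNA from a few embryos and gives 1 value for that pool. Libraries were stranded and made from total RNA. C57BL/6 is an inbred strain, so the 2 alleles carry the same sequence and the parental origin of a read cannot be measured in these data. Maternal and paternal below are textbook classes, not results.

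Totals ranged from 4908565 to 10294443 counts per sample. At these totals a count of 0 allows 0.291 to 0.611 CPM (counts scaled to a common library total), and this limit covers counting error only. CPM values use totals adjusted by trimmed mean of M values (TMM) factors. Male sample 1 had the highest total and the largest number of IDs at 0 (6743, against 4120 to 6280 in the other samples). Across 12726 IDs, the deviation of a sample from the mean followed transcript length with a Spearman's rho of 0.101 to 0.214 in the female samples, -0.260 in male sample 1, -0.144 in male sample 2 and -0.00073 in male sample 3. Markers of neurons and of neural progenitors, the cells of the labelled tissue, were measured in all 6 samples, with summed levels of 3064 to 4413 CPM and 3257 to 3691 CPM. Markers of other head tissues were measured as well. The summed level was 18912 to 27218 CPM for meninges and fibroblasts, 5962 to 8721 CPM for skeletal muscle, 844 to 1823 CPM for cartilage and 673 to 981 CPM for choroid plexus. No marker gene with an ID was at 0 in all 6 samples. In bulk RNA, fewer cells of a type and less RNA per cell cannot be told apart.

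Imprinted genes are marked in the parental germ lines by DNA methylation at imprinting control regions, and the mark is kept through the reprogramming of the early embryo by the zinc finger protein ZFP57 and its cofactor TRIM28. At many loci the unmethylated control region is the promoter of a long non-coding RNA, such as Airn or Kcnq1ot1, that silences neighbouring coding genes in cis. Many imprinted genes act in fetal growth, and the brain is a tissue in which imprinted genes are widely used, among them Peg3, Magel2 and Ube3a, which is linked to Angelman syndrome.

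Promoters are shown first for 3 of the 4 genes whose single ID was higher in every female sample than in any male sample (Plagl1, Zim1 and Peg3); for the other, Peg10, no promoter was used here. The sequences are the 250 bases before the annotated start, from RefSeq on GRCm38.p6, read 5′ to 3′ on the gene's strand. Plagl1 is at chr10:13090582-13090831 on the plus strand, Zim1 at chr7:6696433-6696682 on the minus strand and Peg3 at chr7:6730420-6730669 on the minus strand. Capitals mark TGCCGC, the core bound by ZFP57 when its CpG is methylated, here on the opposite strand, in Plagl1 and Zim1, and GGGGCCCC, a core bound by the PLAGL1 protein, in Peg3.
Plagl1: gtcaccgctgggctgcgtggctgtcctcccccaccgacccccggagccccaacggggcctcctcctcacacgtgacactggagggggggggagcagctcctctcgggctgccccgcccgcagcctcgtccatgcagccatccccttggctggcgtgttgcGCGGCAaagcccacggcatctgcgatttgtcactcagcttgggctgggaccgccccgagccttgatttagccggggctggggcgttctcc
Zim1: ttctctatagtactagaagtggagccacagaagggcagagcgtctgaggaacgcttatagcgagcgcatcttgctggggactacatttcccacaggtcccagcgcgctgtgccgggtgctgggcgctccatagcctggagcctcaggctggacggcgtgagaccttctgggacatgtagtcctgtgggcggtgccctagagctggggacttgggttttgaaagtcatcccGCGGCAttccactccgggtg
Peg3: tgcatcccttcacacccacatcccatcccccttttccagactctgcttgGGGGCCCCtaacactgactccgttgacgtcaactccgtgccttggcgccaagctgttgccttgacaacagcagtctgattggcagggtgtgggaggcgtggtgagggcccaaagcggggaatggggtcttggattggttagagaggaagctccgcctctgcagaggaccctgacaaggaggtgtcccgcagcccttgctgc
The TGCCGC match lay 90 bases before the start in Plagl1 and 20 bases before it in Zim1, and the GGGGCCCC match lay 201 bases before the start of Peg3. Promoter windows of 300 bases (250 before the start and 50 after it) were held for 32 of the 40 genes, 50 windows in all. TGCCGC, searched on both strands, was in 13 of the 50 (26%), in 12 genes, against 11.6% of all 32851 windows. GGGGCCCC, which reads the same on both strands, was in 3 of the 50 (6%; Peg3, Usp29 and Ppp1r9a) against 1.08% of all windows, and Peg3 and Usp29 are neighbours. The median window of the imprinted genes held 13 CpG dinucleotides and that of all genes 7. A match is a run of letters and not a measured binding site.

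The maternally expressed Meg3, Rian and Mirg of the Dlk1-Dio3 cluster are host transcripts of a large group of miRNAs. Their levels are described below as those of long RNAs, and 4 of the 28 mature miRNAs that RefSeq places within them are printed here to show what they carry, 1 each of Meg3 and Rian and the pair in Mirg that shares a seed. Capitals mark the seed, bases 2 to 8.
mmu-miR-770-5p (Meg3): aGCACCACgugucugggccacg
mmu-miR-370-3p (Rian): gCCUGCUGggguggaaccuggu
mmu-miR-496a-5p (Mirg): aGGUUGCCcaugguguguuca
mmu-miR-453 (Mirg): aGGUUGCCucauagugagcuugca
The 28 miRNAs come from 15 hairpins and have 27 different seeds, so this pair was the only one with a shared seed. The tables held IDs for 12 of the 15 hairpins, with at most 67 counts in any sample. Mature miRNAs were not measured in these libraries.

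The level of the imprinted genes was considered first. Levels between genes were compared as CPM per kilobase of the longest annotated transcript, averaged over the 6 samples (± SD, n = 6). Ndn, which encodes the growth suppressor necdin of postmitotic neurons, was highest at 287 ± 56.2 CPM per kb, and the non-coding Rian followed at 249 ± 32.6. Plagl1, a zinc finger transcription factor that restrains proliferation, was at 206 ± 53.5, and Peg3, a zinc finger protein, at 205 ± 29.0. The retrotransposon-derived Peg10 was at 146 ± 26.1 and Igf2r, the receptor that removes IGF2, at 130 ± 15.4. Neighbours in this order lay within 1 SD of each other, except Peg3 and Peg10. Zim1, the zinc finger gene next to Peg3, was at 66.1 ± 16.6, and no other gene with a length was above 34.5 CPM per kb. Kcnq1ot1 has no length in the annotation used, so it was not placed in this order; it had 179 to 1772 CPM.

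**Figure D1:**
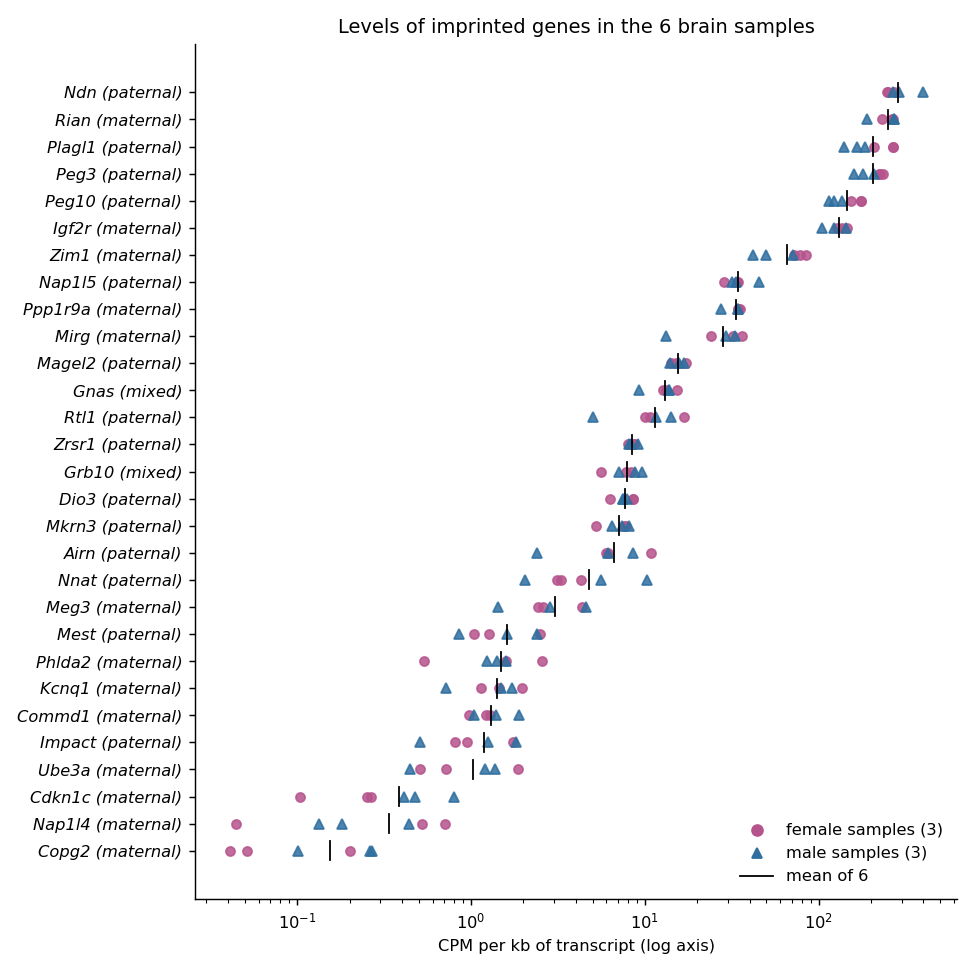
CPM per kilobase (log axis) of the 29 imprinted genes with an annotated length and 10 or more counts in at least 1 sample, with 1 point per sample (circles, 3 female; triangles, 3 male) and the mean of 6 as a bar. Ndn was highest and Copg2 lowest, and maternally and paternally expressed genes are interleaved.

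At the lower end, Calcr, Ddc, Sgce and Asb4 did not reach 10 counts in any sample. Low counts went together with the number of transcript models that RefSeq gives a gene. Of the 15 imprinted genes with 1 model, all 15 had an ID and 13 had a mean of at least 100 counts. Of the 9 with 2 models, 7 had an ID and 1 (Peg10) reached that mean, and of the 16 with 3 or more models, 12 had an ID and 5 did. Over all genes in the tables the median was 4.20 CPM per kb with 1 model, 0.247 with 2 and 0.215 with 3 or more. How reads shared by several transcripts were counted is not stated by the study, and its part in these levels was not tested. Low values of genes with several models, such as Ube3a, Mest, Nnat, Cdkn1c and Sgce, are therefore uncertain as levels.

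The study compared the sexes, and the question here was whether imprinted genes differ between male and female brains. Whether a transcript was called depended on the tool. Of the 42 IDs, 34 (of 30 genes) had 10 or more counts in a sample and were tested, and edgeR's quasi-likelihood F test gave 0 with an adjusted p under 0.05, against 0.0299% of all 13374 tested IDs (4 IDs). The smallest adjusted p was 0.338. Unadjusted, 5 of 34 had a p under 0.05, against 11.5% of all tested IDs, and all 5 were higher in female samples. They were Plagl1, Peg10, Zim1, Peg3 and 1 of 3 tested IDs of Gnas. Of all tested IDs, 4.82% were at that p and higher in females, and 6.68% were higher in males. DESeq2 on the same counts called Plagl1 and Peg10 (adjusted p 0.0141 and 0.0367). With 1 RUVr factor, a factor of unwanted variation taken from the residuals, edgeR called 1 imprinted ID (Kcnq1ot1) and DESeq2 called 4 (these 3 and Zim1), and edgeR without a low-count filter called 3 (Kcnq1ot1, Plagl1 and Zim1). Over the 16 alternatives to the edgeR fit, adjusted p-values ranged from 0.0021 to 0.809 for Plagl1 and from 0.0104 to 0.809 for Peg10.

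Plagl1 (NM_009538, NCBIM37 chromosome 10, 12810497 to 12851500, plus strand), a paternally expressed gene whose promoter is printed above, had 1415, 1412 and 1099 CPM in female samples 1, 2 and 3 and 870, 736 and 975 CPM in male samples 1, 2 and 3. Each female sample was above each male sample. The mean was 1309 ± 181 (SD, n = 3) in females and 860.3 ± 120 (SD, n = 3) in males. The log2 fold change, taken as male minus female, was -0.60 (SE 0.14, edgeR p 0.000991, adjusted p 0.338).

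Peg10 (NM_001040611, chromosome 6, 4697306 to 4710514, plus strand), a paternally expressed gene needed for the placenta, had 1169, 1165 and 1018 CPM in the female samples and 815, 763 and 903 CPM in the male samples. The sexes did not overlap, and the log2 fold change was -0.43 (SE 0.12, edgeR p 0.00331, adjusted p 0.338).

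The Peg3 cluster holds both a paternally and a maternally expressed member of this group. Peg3 (NM_008817, chromosome 7, 6656603 to 6683132, minus strand) had 2026, 1966 and 1930 CPM in the female samples and 1390, 1561 and 1809 CPM in the male samples. Its log2 fold change was -0.31 (SE 0.13, edgeR p 0.0265, adjusted p 0.385), with the smallest gap between the sexes at female sample 3 and male sample 3. Zim1 (NM_011769, chromosome 7, 6628154 to 6649161, minus strand), maternally expressed and next to Peg3, had 274, 296 and 255 CPM in the female samples and 175, 147 and 249 CPM in the male samples. Male sample 3 was close to the lowest female sample, and the log2 fold change was -0.53 (SE 0.17, edgeR p 0.00824, adjusted p 0.341). Its adjusted p was 0.0383 by DESeq2 with 1 RUVr factor and 0.0405 by edgeR without a low-count filter, within a range of 0.0383 to 0.809 over the 16 alternatives.

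Gnas encodes the stimulatory G protein alpha subunit and several other imprinted products. Its ID NM_019690 (chromosome 2, 174109821 to 174172245, plus strand, for the whole gene) had 25.9, 27.9 and 16.7 CPM in the female samples and 14.0, 15.1 and 16.4 CPM in the male samples. Female sample 3 was at the level of male sample 3, and the log2 fold change was -0.62 (SE 0.22, edgeR p 0.0139, adjusted p 0.352). The ID NM_001310083 had 23.9 to 32.4 CPM in females and 22.4 to 37.8 CPM in males (log2 fold change 0.13, SE 0.21), and NM_201617 had 0.103 to 3.07 CPM. Since these IDs share exons, the split of reads among them is uncertain. The 3 IDs summed had 51.3 CPM on average, with a log2 fold change of -0.15, and did not have an unadjusted p under 0.05.

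**Figure D2:**
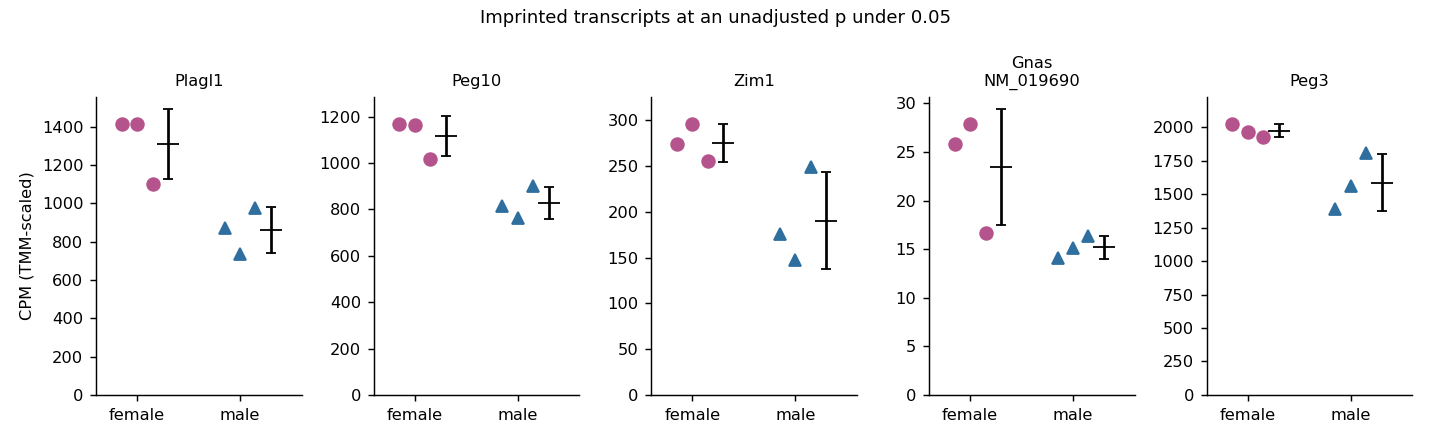
TMM-scaled CPM (axes start at 0) of the 5 imprinted transcript IDs with an unadjusted p under 0.05, with 1 point per sample (circles, female; triangles, male) and the mean ± SD of 3 beside the points. Each female sample lies above each male sample, by the least for Gnas, where the nearest samples are at 16.7 and 16.4 CPM.

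The length trend differed between the sexes, and among markers of other tissues those of cartilage leaned the same way as this group. With trends in transcript length and GC content removed from the counts, the log2 fold change of Plagl1 was -0.43, of Zim1 -0.40, of Peg10 -0.23 and of Peg3 -0.07 (edgeR unadjusted p 0.00905, 0.0239, 0.0974 and 0.574), so the differences of Peg10 and Peg3 were no longer at an unadjusted p under 0.05. The Gnas ID NM_019690 was then at -0.70 (SE 0.23, edgeR unadjusted p 0.0079). Cartilage markers had a summed level of 1823, 1259 and 1729 CPM in the female samples and 844, 877 and 1615 CPM in the male samples, and 5 of 11 tested cartilage IDs had an unadjusted p under 0.05, all higher in females (4.82% of all tested IDs). By the same count, 0 of 18 IDs of meninges and fibroblasts and 1 of 12 of skeletal muscle (higher in females) were at that p. Choroid plexus markers were at 673 to 781 CPM in females and 800 to 981 CPM in males, but 67.7% of this sum was Ttr (transthyretin). Without Ttr the sum was 252 to 273 CPM in females and 218 to 285 CPM in males, with overlap, and 2 of the 8 other tested IDs had a log2 fold change above 0. Markers of the labelled tissue moved as well. Of 9 tested neuron IDs, 3 (Tubb3, Nefl and Gap43, with log2 fold changes of 0.39, 0.46 and 0.58) had an unadjusted p under 0.05, as did 3 of 10 neural progenitor IDs (Sox2, Hes5 and Hes1, with 0.39, 0.77 and 0.37), and all 6 were higher in males (6.68% of all tested IDs). The summed level of neuron markers was 3064 to 3554 CPM in females and 3377 to 4413 CPM in males, and that of progenitor markers was 3257 to 3595 CPM and 3329 to 3691 CPM. The part of these cells and tissues in the sex differences was not tested.

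The CPM of the sexes did not overlap for 6 of the 34 IDs (17.1% of all tested IDs), 5 higher in females (8.35%) and 1 higher in males (8.7%). These were the 5 IDs above and Cdkn1c (NM_001161624, chromosome 7, 150644255 to 150646955, minus strand), a maternally expressed inhibitor of cyclin-dependent kinases, which had 3, 1 and 5 counts in the female samples and 15, 6 and 8 in the males. Its log2 fold change of 1.37 (SE 0.82, edgeR adjusted p 0.530) rested on these low counts.

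In both parental classes most fold changes were small. Among the 34 tested IDs, 11 log2 fold changes were above 0, against 49.0% of all tested IDs, and the median was -0.07 (-0.01 over all tested IDs). The 13 maternally expressed IDs had a median of -0.10, with 1 at an unadjusted p under 0.05 (Zim1). The 17 paternally expressed IDs had a median of -0.03, with 3 (Plagl1, Peg10 and Peg3). With 1 sample left out, the median of all tested imprinted IDs ranged from -0.20 (without male sample 3) to 0.04 (without male sample 1, with 32 IDs tested), and it was also above 0, at 0.03, without female sample 1. The median ranged from -0.20 to 0.02 for the maternal class and from -0.30 to 0.04 for the paternal class, so neither kept its sign. The difference between the classes was not tested.

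**Figure D3:**
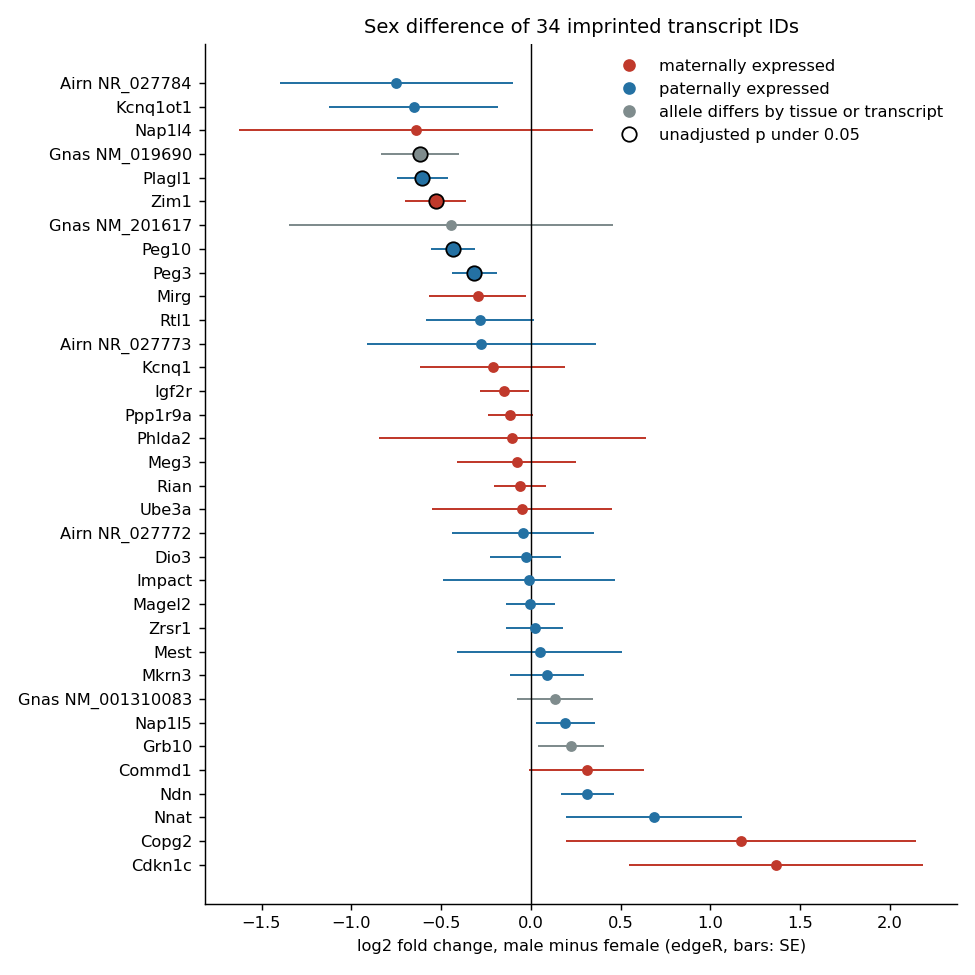
Log2 fold change (male minus female, edgeR) with its SE for the 34 tested imprinted transcript IDs, coloured by parental class, with the 5 at an unadjusted p under 0.05 enlarged. All 5 lie below 0, and the IDs with the widest bars (Nap1l4, Copg2, Gnas NM_201617, Cdkn1c) are those with few counts.

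The remaining clusters were described by their most abundant member. Igf2r (NM_010515, chromosome 17, 12875272 to 12962530, minus strand) had 1294, 1139 and 1211 CPM in the female samples and 924, 1094 and 1273 CPM in the male samples, with overlap (log2 fold change -0.15, SE 0.13). Ndn (NM_010882, chromosome 7, 69493163 to 69494814, plus strand) had 406, 411 and 450 CPM in the female samples and 656, 479 and 442 CPM in the male samples. Male sample 1 alone was well above the rest, and the log2 fold change of 0.31 (SE 0.15, edgeR p 0.0532, adjusted p 0.437) was 0.12 without it. Nap1l5, of the nucleosome assembly protein family, was also highest in male sample 1, with 53.7, 65.4 and 64.0 CPM in the female samples and 86.1, 62.9 and 59.9 CPM in the male samples.

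Grb10, an adaptor that restrains growth factor signalling and is paternally expressed in neurons, had 39.5, 28.1 and 41.9 CPM in the female samples and 35.9, 44.3 and 48.4 CPM in the male samples. Zrsr1, a splicing factor gene derived from a retrogene, varied least of the 30 genes, with 28.3, 28.5 and 26.2 CPM in the female samples and 27.3, 26.7 and 30.1 CPM in the male samples (coefficient of variation 5.06% over 6 samples). Impact, a translational regulator, had 5.50, 2.79 and 3.06 CPM in the female samples and 1.55, 5.65 and 4.20 CPM in the male samples for its main ID. Mkrn3 (NM_011746), a paternally expressed gene of the makorin family of zinc finger proteins, had 13.4, 19.9 and 19.5 CPM in the female samples and 16.6, 20.8 and 18.98 CPM in the male samples (log2 fold change 0.09, SE 0.21). These genes overlapped between the sexes.

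Among genes with few counts, Nnat, which encodes the neuronatin proteolipid, had 5.18, 3.99 and 3.77 CPM in the female samples and 2.17, 12.4 and 6.59 CPM in the male samples for its main ID. Male sample 1 was lowest and male sample 2 highest, and the log2 fold change of 0.69 (SE 0.49, edgeR p 0.185, adjusted p 0.594) became 1.12 (p 0.00411, adjusted p 0.267) without male sample 1 and 0.04 (p 0.940, adjusted p 0.986) without male sample 2, within a range of adjusted p-values of 0.267 to 0.986 over the alternatives. Mest, an alpha/beta hydrolase-like gene used in growing mesoderm, had 3.23, 6.18 and 2.65 CPM in the female samples and 2.17, 6.10 and 4.09 CPM in the male samples for its main ID. Phlda2, a maternally expressed restraint on placental growth, had 1.94, 1.20 and 0.408 CPM in the female samples and 0.930, 1.07 and 1.20 CPM in the male samples, or 4 to 12 counts.

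Among imprinted genes with a mean of at least 100 counts, Kcnq1ot1 had the largest ratio of highest to lowest CPM (9.92). Kcnq1ot1 (NR_001461), the paternally expressed antisense RNA that silences the Kcnq1 cluster, had 10956, 6151 and 9292 counts in the female samples and 1729, 7265 and 12236 in the males. In CPM these were 1772, 1226 and 947 in females and 179, 1109 and 1222 in males, so that male sample 1 was at 0.142 of the mean of the other 5 samples. Of all tested IDs, 16.1% were below 0.5 of that mean in male sample 1. The log2 fold change was -0.65 (SE 0.47, edgeR p 0.189, adjusted p 0.598), and it was -0.18 (SE 0.18) without male sample 1. With 1 RUVr factor, Kcnq1ot1 was called (edgeR adjusted p 0.0036, within a range of 7.4e-11 to 0.919 over the 16 alternatives).

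The other non-coding members were lowest in the same sample. Airn, the paternally expressed RNA antisense to Igf2r, was at 0.32 of the mean of the other 5 samples, Meg3 at 0.422, Mirg at 0.426 and Rian at 0.730. All 7 tested non-coding IDs were lowest in male sample 1, against 25.3% of all tested IDs, and all 7 log2 fold changes were below 0, against 51.0% of all tested IDs (median -0.28). Without this sample 2 of the 7 were below 0 (49.8% of all tested IDs) and the median was 0.03, so no direction is given for these RNAs as a group. Of all 34 tested imprinted IDs, 20 were lowest in this sample and 4 were highest in it (25.4% of all tested IDs). Rtl1, a retrotransposon-derived coding gene transcribed against the miRNA-bearing strand, was at 0.398. Kcnq1, which overlaps Kcnq1ot1, was at 0.462. Low values were not limited to these loci, with Nnat at 0.384, Impact at 0.389, Ube3a at 0.393 and Mest at 0.483. Other coding genes were high in this sample, such as Cdkn1c at 2.66 and Commd1 at 1.59.

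Rian (NR_028261, chromosome 12, 110842155 to 110899919, plus strand) had 1391, 1407 and 1212 CPM in the female samples and 1001, 1430 and 1414 CPM in the male samples. The 5 samples other than male sample 1 spanned 1212 to 1430 CPM and the sexes overlapped. Its log2 fold change of -0.06 (SE 0.15) was 0.09 without male sample 1. Meg3 (NR_027652, chromosome 12, 110779211 to 110809936, plus strand), for which RefSeq has 3 models, had 63.4, 35.5 and 37.5 CPM in the female samples and 20.7, 41.7 and 66.5 CPM in the male samples. Its log2 fold change of -0.08 (SE 0.33) was 0.26 without male sample 1, so no direction is given. The fold changes of Rian, Meg3, Igf2r and Ppp1r9a were also above 0 with length and GC trends removed. How strand was used in counting is not stated, so reads of overlapping antisense pairs such as Igf2r and Airn, or Kcnq1 and Kcnq1ot1, may be shared.

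**Figure D4:**
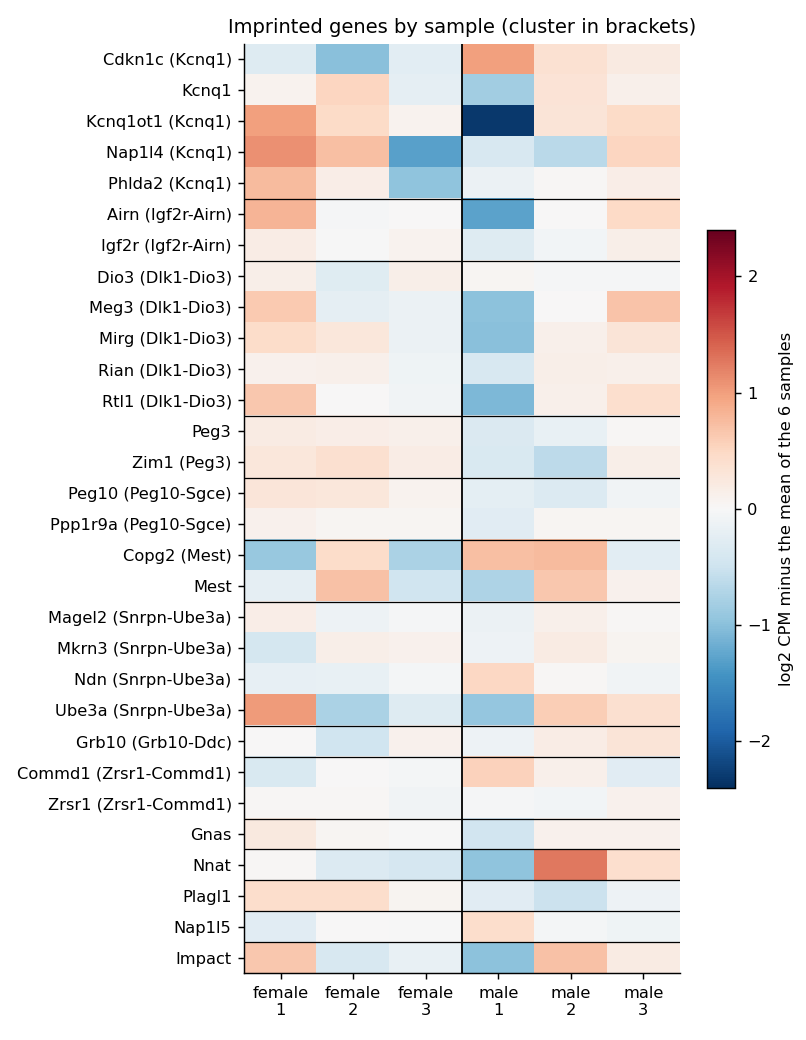
Log2 CPM of each of 30 imprinted genes minus its mean over the 6 samples, by sample (columns; the vertical line separates the sexes) and cluster (horizontal lines). The column of male sample 1 is blue for Kcnq1ot1, Airn, Meg3, Mirg, Rtl1, Impact, Nnat and Ube3a, among others. It is red for Cdkn1c, Copg2, Commd1, Ndn and Nap1l5.

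Neighbouring imprinted genes often share control elements, and their levels were therefore correlated over the 6 samples within clusters. Log2 CPM per gene was used, with an exact two-sided permutation test over all 720 pairings. The 24 genes gave 31 pairs, of which 19 had a positive r, with a median r of 0.364. At an unadjusted permutation p under 0.05 there were 9 pairs and after Benjamini-Hochberg adjustment over the 31 there were 5. By Spearman's rho no pair had an adjusted p under 0.05 (smallest exact permutation value 0.0861). With 6 samples the smallest exact permutation p of rho is 0.00278, so over 31 pairs no single pair could pass on its own.

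The highest r was that of Magel2 and Ube3a (r = 0.983, exact permutation p = 0.00139, adjusted 0.0431, and rho = 1.0, exact permutation p = 0.00278, adjusted 0.0861). Magel2, a paternally expressed regulator of protein trafficking, had 80.2, 66.0 and 70.0 CPM in the female samples and 65.3, 78.0 and 72.8 CPM in the male samples. Ube3a, a ubiquitin ligase that is maternally expressed in neurons, had 9.54, 2.59 and 3.67 CPM in the female samples and 2.27, 7.02 and 6.09 CPM in the male samples. Both were highest in female sample 1 and lowest in male sample 1, and r was 0.958 without these 2 samples. Ube3a has 2 RefSeq models and 13 to 61 counts, and Ndn of the same cluster had an r of -0.467 with Magel2 and -0.519 with Ube3a (exact permutation p 0.392 and 0.306, adjusted 0.609 for both; rho -0.486 with exact permutation p 0.356, adjusted 0.580, for both), which became 0.937 and 0.830 without female sample 1 and male sample 1.

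In the Dlk1-Dio3 cluster, Rtl1 and Mirg had an r of 0.965 and Meg3 and Rtl1 an r of 0.960 (exact permutation p 0.00417 and 0.00694, adjusted 0.0431 for both; rho 0.943 and 0.886 with exact permutation p 0.0167 and 0.0333, adjusted 0.148 for both). Without the 2 samples farthest from the median of the first-named gene they were 0.695 and 0.979. Rian and Mirg had an r of 0.964 (exact permutation p 0.0319, adjusted 0.124, and rho 0.486 with exact permutation p 0.356, adjusted 0.580) that became -0.955 without female sample 3 and male sample 1, so that relation rests on those samples. Dio3, the paternally expressed enzyme that inactivates thyroid hormone, lies at the far end of the cluster and had 12.8 to 17.3 CPM. Its r with Meg3, Rtl1, Rian and Mirg ranged from -0.355 to 0.134 (exact permutation p 0.519 to 0.954, and rho -0.657 to 0.0857 with exact permutation p 0.175 to 0.919).

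Igf2r and Airn had an r of 0.962 (exact permutation p 0.00417, adjusted 0.0431, and rho 0.943 with exact permutation p 0.0167, adjusted 0.148), which was 0.795 without female sample 1 and male sample 1. Phlda2 and Nap1l4 of the Kcnq1 cluster had an r of 0.895 (exact permutation p 0.00556, adjusted 0.0431, and rho 0.886 with exact permutation p 0.0333, adjusted 0.148) at 1 to 12 counts, and 0.794 without female samples 1 and 3. Kcnq1ot1 had an r of 0.857 with Kcnq1 (exact permutation p 0.0625, adjusted 0.176, and rho 0.600 with exact permutation p 0.242, adjusted 0.535), which was 0.802 without female sample 1 and male sample 1 but 0.220 without male sample 1 alone. Peg3 and Zim1 had an r of 0.881 (exact permutation p 0.0389, adjusted 0.134, and rho 0.886 with exact permutation p 0.0333, adjusted 0.148), and it was 0.687 without male samples 1 and 2 and 0.682 with the mean of each sex removed. Peg10 and Ppp1r9a, a neuronal actin-binding gene with 261 to 338 CPM, had an r of 0.495 (exact permutation p 0.432, adjusted 0.609, and rho 0.371 with exact permutation p 0.497, adjusted 0.670), which was 0.732 without female sample 1 and male sample 2.

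The lowest r within a cluster was that of Cdkn1c and Kcnq1 (r = -0.720, exact permutation p = 0.111, adjusted 0.287, and rho = -0.486, exact permutation p = 0.356, adjusted 0.580). Kcnq1, a potassium channel subunit, had 4.37, 5.98 and 3.47 CPM in the female samples and 2.17, 5.19 and 4.49 CPM in the male samples, and Cdkn1c was highest in male sample 1, where Kcnq1 was lowest. The r became 0.767 without female sample 2 and male sample 1. In all, 20 of the 31 pairs kept their sign without the 2 samples farthest from the median of the first-named gene. The second gene played no part in choosing these 2 samples, and male sample 1 was among them for 27 pairs. The sign was kept by 23 pairs whichever single sample was left out. With the mean of each sex removed, all 31 kept their sign, but no pair had an adjusted p under 0.05 (smallest exact permutation p 0.0278, adjusted 0.246), where 0.0278 is the smallest p that the permutations within a sex can give. The genes of a pair are read in the same libraries, so both are subject to each sample's depth and length trend, and the part of these in the correlations was not tested.

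**Figure D5:**
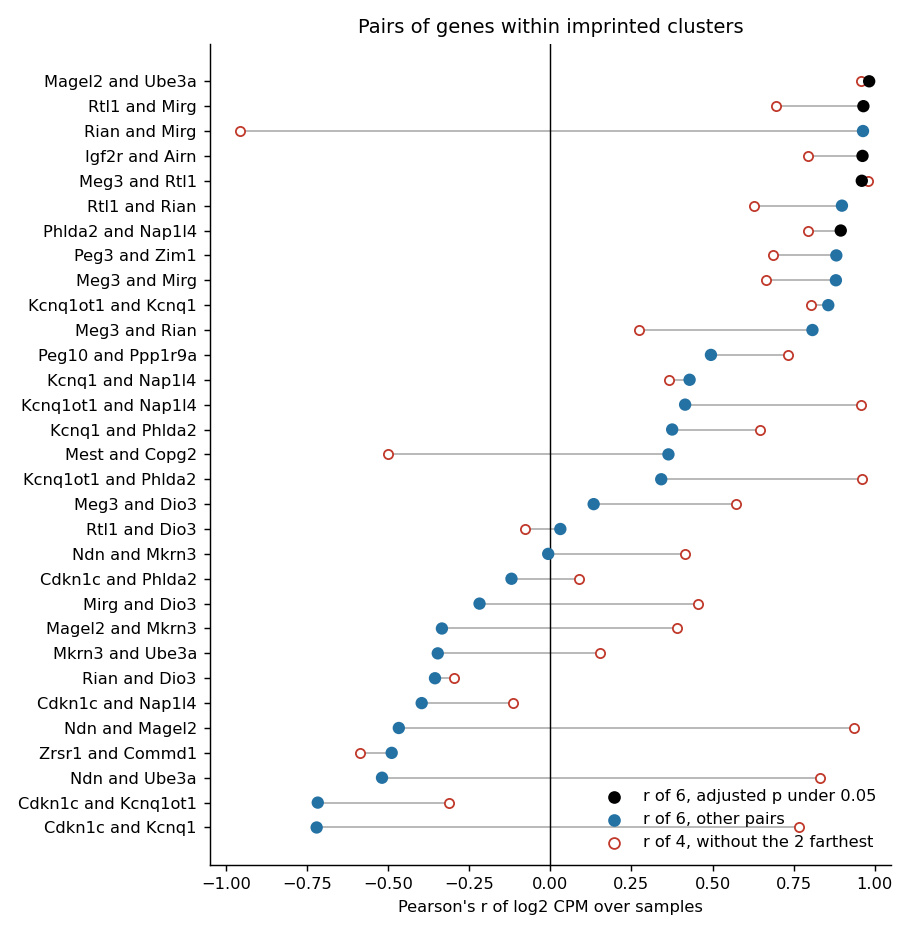
Pearson's r of log2 CPM for the 31 pairs of genes within imprinted clusters over 6 samples (filled; black where the adjusted permutation p was under 0.05) and over the 4 samples left without the 2 farthest from the median of the first-named gene (open). The 5 black pairs stay above 0, whereas Rian and Mirg move from 0.964 to -0.955.

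Pairs from different clusters reached equal values. Over all 435 pairs of the 30 genes, 273 were positive and the median r was 0.302. An r above 0.9 was found for 34 pairs, 5 of the 31 within clusters and 29 of the 404 between clusters. This wider family was computed after the values within clusters had been seen, and none of its pairs had an adjusted permutation p under 0.05 (smallest 0.110, 100 pairs at an unadjusted p under 0.05). The permutation p of 6 samples has a floor, so over 435 pairs no single pair could pass on its own. Peg10 and Plagl1, on different chromosomes, had the highest r (0.993, exact permutation p 0.00139, adjusted 0.110, and rho 1.0 with exact permutation p 0.00278, adjusted 0.227), and it was 0.985 with the mean of each sex removed. Airn and Nap1l5, also on different chromosomes, had the lowest (-0.993, exact permutation p 0.00278, adjusted 0.110, and rho -0.943 with exact permutation p 0.0167, adjusted 0.227). The 10 pairs of non-coding members, grouped after all of them had been seen to be lowest in male sample 1, had an r of 0.808 to 0.983 with a median of 0.936, and without that sample the lowest r was 0.260 and the median 0.686.

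Several imprinted genes are used in mesenchyme or choroid plexus as well as in brain, so 5 of them (Plagl1, Mest, Cdkn1c, Phlda2 and Peg3) were set against the summed CPM of 4 marker lists. Of the 20 relations, 1 had an adjusted permutation p under 0.05. Peg3 was lower where the choroid plexus sum, mostly Ttr, was higher (r = -0.938, exact permutation p = 0.00139, adjusted 0.0278; rho = -1.0, exact permutation p = 0.00278, adjusted 0.0556), with an r of -0.848 without male samples 1 and 2. Peg3 followed cartilage with an r of 0.883 and muscle with an r of 0.866 (exact permutation p 0.0236 and 0.025, adjusted 0.167 for both, and rho 0.829 and 0.600 with exact permutation p 0.0583 and 0.242, adjusted 0.292 and 0.457), which became 0.0556 and -0.512 without male samples 1 and 2, so these rest on those samples. With the mean of each sex removed, the r with choroid plexus was -0.855 (exact permutation p 0.0556, adjusted 0.556). In an alternative chosen after seeing the data, the most abundant gene of each list was left out of the sum, and the r of Peg3 with choroid plexus markers without Ttr was 0.0336 (exact permutation p 0.957, adjusted 0.994, and rho -0.371 with exact permutation p 0.497, adjusted 0.705), so the relation rests on Ttr. Plagl1 had an r of 0.688 with cartilage (0.336 without female sample 1 and male sample 2) and -0.775 with the choroid plexus sum (exact permutation p 0.146 and 0.0653, adjusted 0.365 and 0.227, and rho 0.771 and -0.943 with exact permutation p 0.103 and 0.0167, adjusted 0.411 and 0.111), and the latter was 0.308 without Ttr (exact permutation p 0.593, adjusted 0.912, and rho -0.0857 with exact permutation p 0.919, adjusted 1.0).

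A further 34 imprinted genes outside the 40 were read in the same fit. Of these, 29 had an ID and 21 IDs were tested, with 0 called by edgeR's adjusted p and 3 at an unadjusted p under 0.05, against 11.5% of all tested IDs. Slc22a3, an organic cation transporter of the Igf2r cluster, had 5.66, 6.98 and 6.22 CPM in the female samples and 2.79, 3.05 and 3.10 CPM in the male samples (log2 fold change -1.07, SE 0.32). Ago2, the Argonaute of miRNA silencing, had 598, 510 and 478 CPM in the female samples and 391, 348 and 470 CPM in the male samples (-0.39, SE 0.14). Peg12, of the Snrpn-Ube3a cluster, had 27.7, 23.1 and 32.7 CPM in the female samples and 40.2, 38.0 and 37.6 CPM in the male samples (0.46, SE 0.17), so the 3 did not share a direction. The median over the 21 was -0.12.

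Of 25 genes that set or keep imprints, 18 had an ID and 13 IDs were tested, with 0 called by edgeR's adjusted p and 1 at an unadjusted p under 0.05, against the same 11.5%. Tet1, which oxidises methylated cytosine, had 262, 287 and 242 CPM in the female samples and 175, 200 and 221 CPM in the male samples (log2 fold change -0.41, SE 0.13, edgeR p 0.00726, adjusted p 0.341). Trim28 had 662 to 802 CPM in females and 778 to 895 CPM in males, and the non-coding Zfp57 ID NR_033137 had 25.4 to 51.1 CPM in females and 12.5 to 49.6 CPM in males. The coding Zfp57 ID had 0.713 to 3.39 CPM in females and 0.207 to 1.37 CPM in males, with overlap. Its log2 fold change of -1.34 (SE 0.78) rested on 2 to 19 counts per sample.

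Of the 12 genes of the IGF and growth axis, through which Igf2r and Grb10 act, 10 IDs were tested and 0 were called by edgeR (0.0299% of all tested IDs), with 2 at an unadjusted p under 0.05 (11.5%). Igf1r, the receptor for IGF signals, had 732, 643 and 626 CPM in the female samples and 492, 492 and 587 CPM in the male samples (log2 fold change -0.35, SE 0.12, edgeR p 0.0147, adjusted p 0.355). Igfbp2, an IGF binding protein, had 16.7, 4.98 and 29.8 CPM in the female samples and 43.4, 32.8 and 26.3 CPM in the male samples (0.95, SE 0.40, edgeR p 0.0357, adjusted p 0.399), with overlap. Of small RNAs hosted in imprinted loci, 5 IDs were tested and 0 had an edgeR unadjusted p under 0.05 (11.5% of all tested IDs), and their summed level was lowest in male sample 1, at 4.85 CPM against 9.07 to 13.1 CPM in the other samples.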

How the data were processed

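Transcript counts were read for 3 female and 3 male samples. According to the study's methods and processing notes, reads were trimmed with Trimmomatic 0.32, aligned to mouse assembly mm9 with TopHat2 2.1.1, assembled with Cufflinks 2.2.1 and counted with featureCounts 1.5.1. The values deposited by the authors are raw counts per RefSeq transcript ID, not normalised, and the handling of shared or multiply aligned reads and of strand is not given in the sources used here. The study itself used DESeq2 with RUVr factors.

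The members and lists were chosen with earlier results of these data known. Symbols came from a RefSeq table (23359 of 23485 IDs), and lengths and coordinates from the GENCODE annotation of NCBIM37 (21475 IDs). Promoter and miRNA sequences came from RefSeq tables on GRCm38.p6, whose coordinates were not mixed with those of NCBIM37. Males were compared with females in edgeR 4.0.16 (quasi-likelihood F test, TMM factors, IDs reaching 10 counts in any sample, Benjamini-Hochberg adjustment over all 13374). Correlations used gene sums as log2 CPM with a prior count of 2. Of the planned relations with other tissues, those with H19, Igf2 and Dlk1 were not computed. Named were all members, with per-sample values for those at an unadjusted p under 0.05, the most abundant of each cluster and the pairs with the highest and lowest r, and up to 5 genes per other list at an unadjusted p under 0.05. Rian, Meg3, Kcnq1ot1, Trim28, Zfp57, Peg10 with Plagl1 and Airn with Nap1l5 were given more values after these had been seen. No label gives a batch, so none was compared. P-values measure the spread between pools. Alternatives were other normalisations (RLE, upper quartile), low-count filters, DESeq2 1.42.0, RUVr factors, IDs summed per gene, length and GC trends removed, a replicate block, leaving out each sample, a prior count of 0.5, sex means removed and, chosen after seeing the data, marker lists without their most abundant gene. The scripts were tested on simulated data. Software was R 4.3.3 and Python 3.11.15.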

Additional observations from a re-analysis of the deposited data

How the results depend on the processing

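The number of imprinted IDs called stayed at 0 with RLE or upper-quartile factors, filterByExpr, IDs summed per gene, length and GC trends removed and each sample left out. It was 3 without a low-count filter (Kcnq1ot1, Plagl1 and Zim1), 2 with DESeq2 (Plagl1 and Peg10), 1 with edgeR and 1 RUVr factor (Kcnq1ot1) and 4 with DESeq2 and 1 RUVr factor (Kcnq1ot1, Peg10, Plagl1 and Zim1), all higher in females; the cause was not tested. The number at an unadjusted p under 0.05 was 10 with either RUVr fit (against 17.8% of all tested IDs with edgeR and 14.2% with DESeq2), 3 with length and GC trends removed (8.99%) and 3 to 6 with 1 sample left out. It was 3 without female sample 1 (5.73%) and 3 without female sample 2 (5.61%), where Peg10, Plagl1 and Zim1 were left, and 4 without female sample 3 (16.1%). Over all tested IDs, 95 were called with DESeq2, 36 with edgeR and 1 RUVr factor, 346 with DESeq2 and that factor, 276 without a filter and 4 to 51 with 1 sample left out (51 without female sample 3). The IDs without overlap numbered 6 to 10 with 1 sample left out, against 23.2% to 36.7% of all tested IDs (10 of 34 without male sample 3, against 33.4%), and this count was not computed for the RUVr, trend and block fits, which have no CPM of their own. The median of the paternally expressed IDs was -0.30 to 0.0402 with 1 sample left out, the lowest without male sample 2. Of the imprinting regulators, 1 (Tet1) was called with DESeq2 and 1 RUVr factor. Plagl1, Peg10, Zim1, Peg3 and Gnas stayed below 0 in all 16 alternatives, with adjusted p-values of 0.0021 to 0.809 for Plagl1. This shared sign adds little, because these IDs were picked from the same samples. Their CPM did not overlap between the sexes, so leaving out 1 sample could hardly change the sign. The log2 fold change of Gnas ranged from -0.81 to -0.15.

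Same-numbered samples did not deviate together (correlations of -0.287, -0.064 and -0.203). With 3 samples per sex, these values cannot show whether same-numbered pools shared a preparation or a batch. With the number as a replicate block, 0 imprinted IDs were called and 4 had an unadjusted p under 0.05, against 8.41% of all tested IDs. No sample correlated best with its own number.

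The pairs within clusters with an adjusted p under 0.05 remained 5 in number with a prior count of 0.5 or RLE factors, and numbered 0 with sex means removed and 0 when all 435 pairs formed the family. With sex means removed, or with all 435 pairs as the family, no single pair could pass on its own. The relations with other tissues remained 1 and became 0 with sex means removed. It was also 0 with the most abundant gene of each marker list left out, an alternative chosen after seeing the data, where the r of Peg3 and choroid plexus turned from -0.938 to 0.0336 and that of Peg3 and cartilage was 0.875. Depth limits what can be said of Cdkn1c, Phlda2, Nap1l4, Copg2 and the untested IDs, which had at most 15 counts in a sample.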
